A study of Mus musculus with 12 samples.

Results

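The genes described here are 10 glutathione transferase genes grouped around Mgst1, of 17952 genes in the deposited tables of 12 sorted heart cell samples. They are the membrane-bound enzymes Mgst1, Mgst2 and Mgst3, the mu-class enzymes Gstm1 and Gstm2, and 1 enzyme each of the theta (Gstt1), alpha (Gsta4), pi (Gstp1), omega (Gsto1) and kappa (Gstk1) classes. Mgst1 and Gstm1 were picked because their levels were higher in P16hi than in P16lo F480-high libraries, so their difference in those libraries is given as a description, with no test. The other 8 were added as members of the same enzyme families, and all 10 were found by gene symbol in both tables.

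P16hi and P16lo stand for high and low green fluorescence. All mice carried the p16-2A-CreER allele, in which a Cre that needs tamoxifen is made from the p16 locus, and R26-mTmG, a reporter that turns from red to green where Cre has acted. All had a myocardial infarction, received tamoxifen on day 5 and gave infarct-zone tissue on day 7, from which cardiomyocytes were removed before sorting. The 4 groups, of 3 libraries each, were P16hi F480-high and P16lo F480-high cells, selected by the macrophage surface protein encoded by Adgre1, and P16hi PDGFRα-high and P16lo PDGFRα-high cells, selected by a receptor typical of fibroblasts. Whether each library stands for its own animal is not in the labels, and the p-values below therefore cover the spread among these libraries alone, which may be technical. The libraries are bulk samples, in which fewer cells of a type and less RNA per cell cannot be told apart.

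Glutathione transferases join the tripeptide glutathione to reactive, electrophilic molecules, which can then be pumped out of the cell. The cytosolic enzymes work as pairs of subunits, while the membrane-bound ones belong to the MAPEG family, whose other members make leukotrienes and prostaglandins. Several of the family also reduce lipid peroxides, which form in heart muscle after ischaemia, and many of the genes respond to the transcription factor NRF2 through antioxidant response elements.

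Total counts ran from 3.16 to 27.9 M per library (M, 1000000 counts). In PDGFRα-high cells they were 3.164, 5.065 and 10.25 M in P16hi libraries 1 to 3 and 18.93, 15.73 and 13.52 M in P16lo ones. Every P16hi library there was thus shallower than every P16lo library. Cdkn2a, the gene whose locus drives the Cre, was measured at 0.555 to 1.01 counts per 1000000 (CPM) in P16hi F480-high libraries, against 0.114 to 0.191 in P16lo ones. In the PDGFRα-high libraries it was measured at 0.617 to 1.84 CPM in P16hi and 0.103 to 0.329 in P16lo. CPM here are relative to the TMM-scaled library size, a scaling that makes libraries of different makeup comparable. Several libraries stood apart. Among F480-high cells, P16hi library 3 had 3560 CPM summed over 8 endothelial markers, against 31.7 to 33.0 in the other P16hi libraries and 30.7 to 139 in the P16lo ones. The same library had 929 CPM over 9 cardiomyocyte markers, where the other P16hi libraries had 5.34 and 25.3 and the P16lo ones 3.24 to 11.7, with 1 of the 9 markers at 0 in P16hi library 2 and 3 at 0 in P16lo library 3. The endothelial markers were all detected in every library. In P16lo library 3 the 10 macrophage markers summed to 2607 CPM and Adgre1 to 33.5, the lowest of the 6 for both. The PDGFRα-high libraries were not clearly fibroblast-rich. In 4 of the 6 the macrophage markers summed higher than the fibroblast markers, the exceptions being P16hi library 3 and P16lo library 3. Pdgfra ran from 8.61 to 46.5 CPM in P16hi and from 4.65 to 165 in P16lo, with the highest value in P16lo library 3. P16lo libraries 3 and 2 also had the most erythroid markers, 668200 and 199700 CPM over 6 genes. The P16hi libraries reached at most 39730 CPM, and P16lo library 1 had 5769. P16lo library 2 had the most monocyte, neutrophil and T and NK cell markers, summing to 5078, 2123 and 1226 CPM, where the P16hi libraries reached at most 725, 168 and 119 and the other P16lo libraries at most 1113, 189 and 230.

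Mgst1 encodes microsomal glutathione transferase 1, a trimer of the endoplasmic reticulum and outer mitochondrial membranes that conjugates electrophiles and reduces lipid hydroperoxides. Its level in F480-high P16hi libraries 1 to 3 was 192, 180 and 106 CPM, against 33.0, 29.5 and 29.3 CPM in the P16lo libraries. Every P16hi library lay above every P16lo library, and the lowest P16hi value was 3.21 times the highest P16lo value. The P16lo values lay close together, while the P16hi values spread more widely. P16lo libraries 1 and 2 were far more alike over all genes than any other pair of F480-high libraries of 1 group, with a chi-square per degree of freedom of 36.5, against 476.2 to 732 for the other pairs. They still differed by more than counting error, and were kept as separate libraries, but the SD over the P16lo group may rest on fewer independent samples than 3. The means were 159 ± 46.9 CPM in P16hi and 30.6 ± 2.05 CPM in P16lo (SD, n = 3 each), a 5.20-fold difference or 2.38 on the log2 scale (SE 0.337). Without P16hi library 3, which carried the endothelial and cardiomyocyte markers, the log2 difference was 2.62.

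Gstm1, a mu-class enzyme abundant in liver and also found in heart, had 274, 82.4 and 296 CPM in the P16hi F480-high libraries, against 65.3, 58.0 and 33.8 CPM in the P16lo ones. The groups did not overlap, but P16hi library 2 lay only 1.26 times above the highest P16lo library, and the other P16hi libraries stood well above it. P16hi library 2 also had the most monocyte markers, 5738 CPM over 7 genes, against 232 and 423 in the other P16hi libraries and 1658 to 1775 in P16lo. Its resident macrophage markers, also 7 genes, summed to 193 CPM, against 1824 and 769 in P16hi libraries 1 and 3, and to 521, 503 and 11.3 CPM in the P16lo libraries. All of these markers were detected in each library, and their part in the Gstm1 values was not tested. The means were 218 ± 118 CPM in P16hi and 52.4 ± 16.5 CPM in P16lo (SD, n = 3 each), a 4.15-fold difference, or 2.05 on the log2 scale (SE 0.567). Leaving out each library in turn gave log2 differences of 1.78 to 2.45 for Gstm1 and 2.21 to 2.62 for Mgst1. Both genes were picked for groups that lie apart in these libraries, so the direction could not change. The ranges do not show whether the differences would repeat. Mgst1 and Gstm1 had different low points within P16hi, library 3 for Mgst1 and library 2 for Gstm1, and their Pearson correlation over the 6 F480-high libraries was 0.75. Of the 12490 genes tested in these cells, 3.37% had every P16hi library above every P16lo library, and Mgst1 and Gstm1 were the 2 of the 9 tested members that did, by their choice.

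The F480 table lists its libraries in a pair of column blocks, whose meaning the labels do not give, and both blocks hold both groups. Within the block of P16hi libraries 2 and 3 and P16lo library 3, Mgst1 was at 180 and 106 CPM in P16hi and 29.3 in P16lo, and Gstm1 at 82.4 and 296 CPM in P16hi and 33.8 in P16lo. Within the other, Mgst1 was at 192 CPM in P16hi library 1 and 33.0 and 29.5 CPM in the P16lo libraries, and Gstm1 at 274 CPM in P16hi and 65.3 and 58.0 in P16lo. Since every P16hi library lies above every P16lo library for both genes, which were picked for that, any split by block gives this direction.

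**Figure D1:**
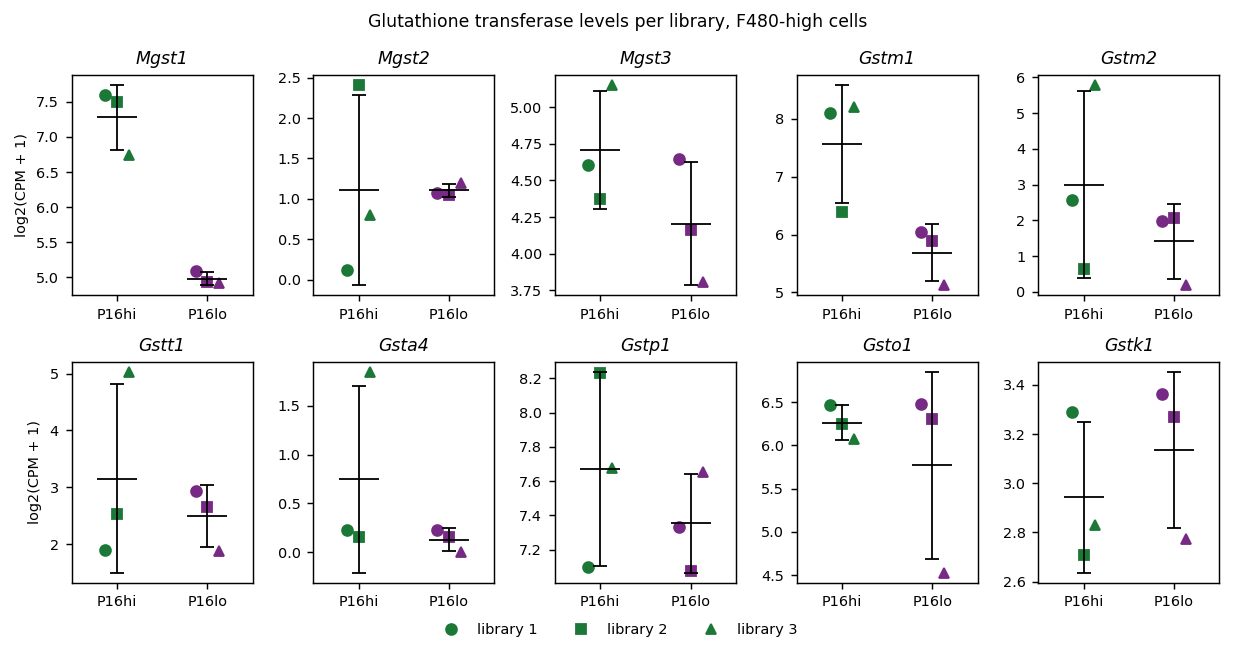
Levels of the 10 glutathione transferase genes in F480-high cells, as log2(CPM + 1) on the vertical axis, with P16hi to the left of P16lo for each gene. Each marker is 1 library, with a shape for each library number, and bars give the mean ± SD of 3 libraries. The P16hi and P16lo points are apart for Mgst1 and Gstm1 and overlap for the other 8, and Gstm2 and Gstt1 have 1 high point each, P16hi library 3 at 54.8 and 31.7 CPM.

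The start regions of Mgst1 and Gstm1 are shown because these are the genes picked for being higher in the P16hi F480-high libraries. Mgst1 lies on chromosome 6 and Gstm1 on chromosome 3, beside Gstm2 with 25829 bases between the pair. Each window holds 250 bases before and 50 after an annotated start, 5′ to 3′ on the gene's strand, from RefSeq on GRCm38.p6. The windows span chr6:138140277-138140576 (plus strand) for Mgst1 and chr3:108017924-108018223 (minus strand) for Gstm1. Capitals mark a match, on either strand, to the core of the antioxidant response element, TGACNNNGC.
Mgst1: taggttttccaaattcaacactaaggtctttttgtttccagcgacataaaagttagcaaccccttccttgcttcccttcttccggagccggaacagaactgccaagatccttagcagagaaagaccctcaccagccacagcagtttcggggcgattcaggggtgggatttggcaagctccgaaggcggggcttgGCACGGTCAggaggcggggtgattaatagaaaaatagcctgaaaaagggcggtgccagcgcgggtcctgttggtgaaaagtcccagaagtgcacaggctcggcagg
Gstm1: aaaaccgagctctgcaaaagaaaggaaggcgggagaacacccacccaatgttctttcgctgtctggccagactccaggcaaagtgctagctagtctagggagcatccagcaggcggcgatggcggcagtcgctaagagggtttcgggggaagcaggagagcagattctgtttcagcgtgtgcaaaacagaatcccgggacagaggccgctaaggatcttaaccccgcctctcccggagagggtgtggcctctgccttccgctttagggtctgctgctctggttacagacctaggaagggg
The match in Mgst1 is on the opposite strand and begins 56 bases before the start. Windows were matched for 9 of the 10 genes, and Mgst1 alone held this exact pattern. Mgst1 and Gstm1 each have a further annotated start, not shown, and neither of those windows held it. The core is a short pattern, and 14.0% of 27025 genes hold it in at least 1 such window. A match is only a run of letters, and binding there was not measured.

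The other membrane-bound enzymes did not share the Mgst1 difference in F480-high cells. Mgst2, which can join glutathione to leukotriene precursors, was low throughout, at 0.0854, 4.33 and 0.735 CPM in P16hi and 1.10, 1.07 and 1.30 CPM in P16lo. Its P16hi values lay on both sides of the P16lo values, and the log2 difference of 0.57 (SE 1.31) was smaller than its error. Mgst3, a microsomal enzyme with peroxidase activity that is abundant in heart and skeletal muscle, had 23.3, 19.7 and 34.6 CPM in P16hi and 24.0, 16.9 and 13 CPM in P16lo. The groups overlapped, with a log2 difference of 0.52 (SE 0.385, adjusted p = 0.999 by edgeR's quasi-likelihood test).

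Gstm2, the neighbour of Gstm1, had 4.91, 0.546 and 54.8 CPM in P16hi and 2.93, 3.17 and 0.153 CPM in P16lo F480-high libraries. Gstt1, a theta-class enzyme that acts on small halogenated compounds, had 2.73, 4.76 and 31.7 CPM in P16hi and 6.66, 5.31 and 2.67 CPM in P16lo. For both genes P16hi library 3 was far above the other 5 libraries, which overlapped, and this was the library with the endothelial and cardiomyocyte markers. The log2 differences were 3.26 (SE 1.74) for Gstm2 and 1.42 (SE 0.995) for Gstt1, both with an adjusted p of 0.999 by edgeR. Without P16hi library 3 they were 0.39 and -0.38. Gsta4, an alpha-class enzyme specialised for the lipid peroxidation product hydroxynonenal, was near the detection limit, with 4, 3 and 46 counts in P16hi libraries 1 to 3 and 4, 3 and 0 in P16lo. It did not pass the count filter, and its highest count again came from P16hi library 3. The part of the other cell types' RNA in these values was not tested.

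Gstp1, the pi-class enzyme, had 136, 300 and 204 CPM in P16hi F480-high libraries and 160, 134 and 200 CPM in P16lo ones. Gsto1, an omega-class enzyme that works more as a thiol reductase than as a transferase, had 87.7, 74.7 and 66.1 CPM in P16hi and 87.8, 78.3 and 22.1 CPM in P16lo. Gstk1, the kappa-class enzyme of mitochondria and peroxisomes, had 8.79, 5.54 and 6.11 CPM in P16hi and 9.30, 8.64 and 5.84 CPM in P16lo. In all 3 the groups overlapped, and the low Gsto1 value belonged to P16lo library 3, the library with the fewest macrophage markers. The log2 differences were 0.38 (SE 0.397) for Gstp1, 0.28 (SE 0.518) for Gsto1 and -0.22 (SE 0.482) for Gstk1, each with an adjusted p of 0.999 by edgeR.

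In F480-high cells no member passed an adjusted p of 0.05 by edgeR in either direction, and neither did any other gene, so the share called over all genes was 0%. At an unadjusted p under 0.05, 242 genes (1.94%) were higher in P16hi and 38 (0.304%) were lower. DESeq2 called 2 genes (0.016%) higher and 1 (0.00801%) lower. The median log2 difference over the 9 tested members was 0.57, with 8 above 0 and 1 below, beside a median of 0.00 over all genes tested. That median includes the pair chosen for this difference.

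The PDGFRα-high cells were not used to choose the genes. There the Mgst1 and Gstm1 differences were not repeated beyond the spread between libraries. Mgst1 had 122, 45.6 and 107 CPM in P16hi and 46.0, 73.2 and 100 CPM in P16lo libraries 1 to 3. The ranges overlapped almost fully, and the log2 difference was 0.33 (SE 0.467, adjusted p = 0.899 by edgeR). Gstm1 had 483, 299 and 236 CPM in P16hi and 116, 63.9 and 490 CPM in P16lo. P16lo library 3 had the highest value of all 6, while the other P16lo libraries lay below every P16hi library, and the log2 difference was 0.60 (SE 0.749, adjusted p = 0.894 by edgeR).

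Gstm2 and Gstt1 had the same highest library as Gstm1 in these cells, P16lo library 3. Gstm2 had 52.3, 77.0 and 63.0 CPM in P16hi and 13.7, 16 and 127 CPM in P16lo. Gstt1 had 36.4, 28.2 and 26.7 CPM in P16hi and 10.8, 13.4 and 81.4 CPM in P16lo. In both, the other P16lo libraries lay below every P16hi library. P16lo library 3 also had the highest fibroblast marker sum, 20890 CPM, against 1867 to 7114 in P16hi and 718 and 2613 in the other P16lo libraries. Its erythroid marker sum, 668200 CPM, was the highest as well. With all libraries the log2 differences were 0.30 (SE 0.837) for Gstm2 and -0.21 (SE 0.769) for Gstt1. Without P16lo library 3 they were 2.10 and 1.32, and that of Gstm1 was 1.90, none past the threshold by edgeR (adjusted p = 0.171, 0.361 and 0.285). The part of the fibroblast and erythroid shares in these values was not tested.

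**Figure D2:**
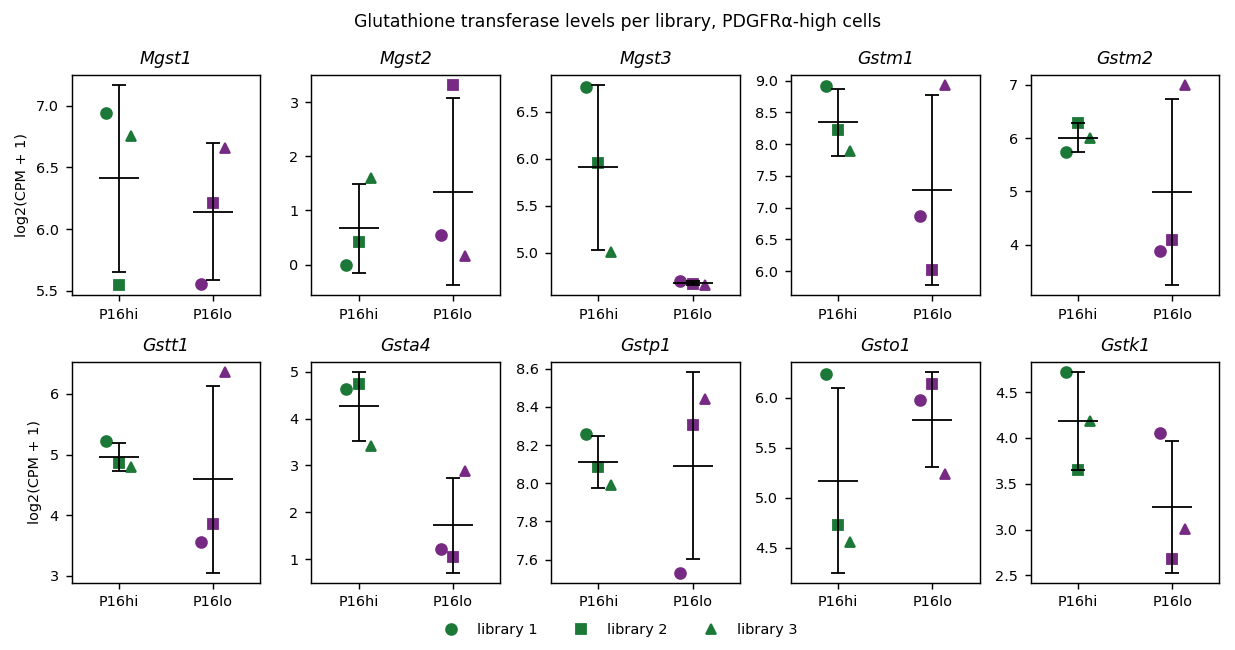
Levels of the 10 genes in PDGFRα-high cells, as log2(CPM + 1) on the vertical axis, with P16hi to the left of P16lo for each gene. Each marker is 1 library, with a shape for each library number, and bars give the mean ± SD of 3 libraries. The P16hi points lie above all P16lo points for Mgst3 and Gsta4, and P16lo library 3 is the highest point for Gstm1, Gstm2 and Gstt1 at 490, 127 and 81.4 CPM.

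Gsta4 and Mgst3 were the members whose PDGFRα-high groups did not overlap. Gsta4 had 23.6, 25.8 and 9.64 CPM in P16hi and 1.34, 1.08 and 6.36 CPM in P16lo, from 77, 153 and 125 counts in P16hi and 26, 16 and 58 in P16lo. The lowest P16hi library was 1.52 times the highest P16lo one. The means were 19.7 ± 8.76 CPM in P16hi and 2.93 ± 2.97 CPM in P16lo (SD, n = 3 each), a 6.76-fold difference. On the log2 scale this was 2.76 (SE 0.880, adjusted p = 0.594 by edgeR's model over all genes). Mgst3 had 108, 60.9 and 31.2 CPM in P16hi and 25, 24.5 and 24.2 CPM in P16lo. The P16lo libraries were nearly equal and the P16hi ones ranged widely above them, with a log2 difference of 1.44 (SE 0.466, adjusted p = 0.594 by edgeR). Its unadjusted p, like that of Gsta4, was under 0.05. Mgst3 counts before scaling were 354, 361 and 405 in P16hi and 484, 362 and 221 in P16lo. Every P16hi library had fewer total counts than every P16lo library in these cells, so depth and group cannot be told apart here.

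Neither difference passed edgeR's adjusted threshold. Gsta4 did so in limma on log2(TPM + 1), where its log2 difference was 3.24 (adjusted p = 0.00657), and limma called 1.65% of all genes higher there on the deposited TPM and 1.66% on recomputed TPM. Over all alternatives its adjusted p ran from 0.00656 to 0.979. Cardiomyocyte and endothelial marker sums were also higher in every P16hi than in every P16lo library. Over 9 cardiomyocyte markers, all detected in every PDGFRα-high library, the summed level was 8997, 5816 and 2506 CPM in P16hi and 296, 270 and 333 CPM in P16lo. Mgst3 had the same order over the P16hi libraries as these sums, and Gsta4 did not. Total counts had the reverse order over the same libraries, so the shared order cannot be tied to a cell type. Over 8 endothelial markers the sum was 1699, 1802 and 2850 CPM in P16hi and 741, 384 and 602 CPM in P16lo. Over the P16hi libraries in that order the endothelial sums rose, while Mgst3 fell and Gsta4 was lowest in the last. The part of these cells' RNA in the Gsta4 and Mgst3 differences was not tested.

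**Figure D3:**
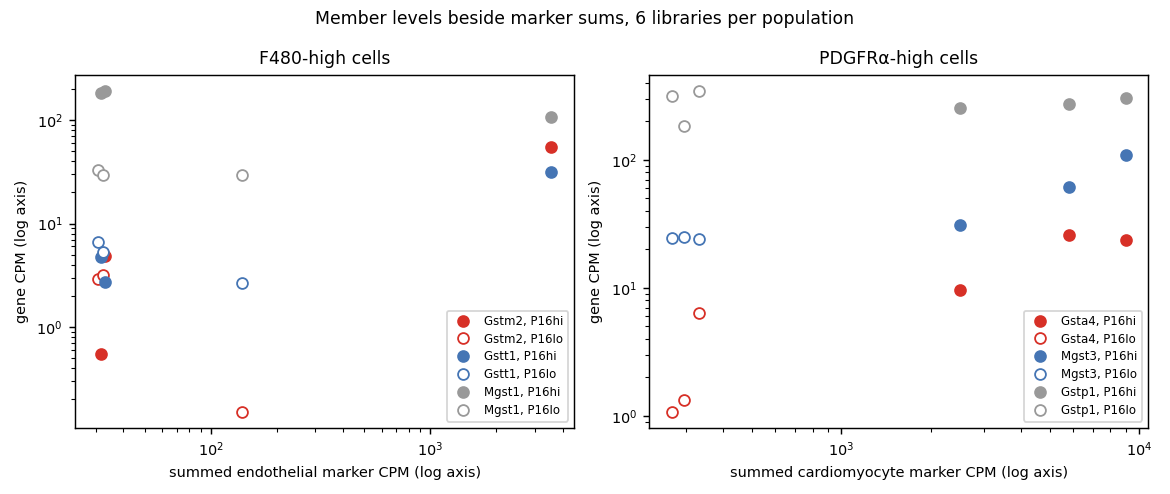
Member levels against summed marker levels of other cell types, both in CPM on log axes, with filled symbols for P16hi and open symbols for P16lo libraries. On the F480-high side 1 library, P16hi library 3, stands apart at 3560 CPM of endothelial markers, where Gstm2 and Gstt1 are high and Mgst1, at 106 CPM, is the lowest of the P16hi libraries. On the PDGFRα-high side the P16hi libraries have both more cardiomyocyte markers and more Gsta4 and Mgst3, while Gstp1 stays between 184 and 347 CPM.

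The remaining members overlapped between the PDGFRα-high groups. Gstp1 had 305, 271 and 253 CPM in P16hi and 184, 315 and 347 CPM in P16lo. Gsto1 had 74.1, 25.5 and 22.6 CPM in P16hi and 61.8, 69.1 and 36.8 CPM in P16lo. Gstk1 had 25.4, 11.6 and 17.2 CPM in P16hi and 15.6, 5.41 and 7.02 CPM in P16lo. Gstk1 was lowest in a pair of P16lo libraries but P16lo library 1 lay among the P16hi values, and the log2 differences were -0.03 (SE 0.353), -0.47 (SE 0.531) and 0.95 (SE 0.591) for Gstp1, Gsto1 and Gstk1 (adjusted p = 0.984, 0.884 and 0.873 by edgeR). Mgst2 did not pass the count filter, with 0, 2 and 26 counts in P16hi and 9, 133 and 1 in P16lo. It was not listed for P16hi library 1, where it was set at 0, and P16lo library 2, the one with the most monocyte, neutrophil and lymphocyte markers, held most of its counts.

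Of the 9 members tested in PDGFRα-high cells, none was called in either direction by edgeR at an adjusted p of 0.05, as was no other gene of 13262 (0%). At an unadjusted p under 0.05, 2 members were higher and none lower, beside 637 (4.80%) and 222 (1.67%) of all genes. The groups did not overlap, with P16hi higher, for 2 members, beside 7.92% of all genes tested. The members' median log2 difference was 0.33, with 6 above 0 and 3 below, beside -0.17 over all genes. DESeq2 called 293 genes (2.21%) higher and 11 (0.0829%) lower in P16hi, with no member among them, and gave Gsta4 a log2 difference of 2.75 (adjusted p = 0.0592).

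**Figure D4:**
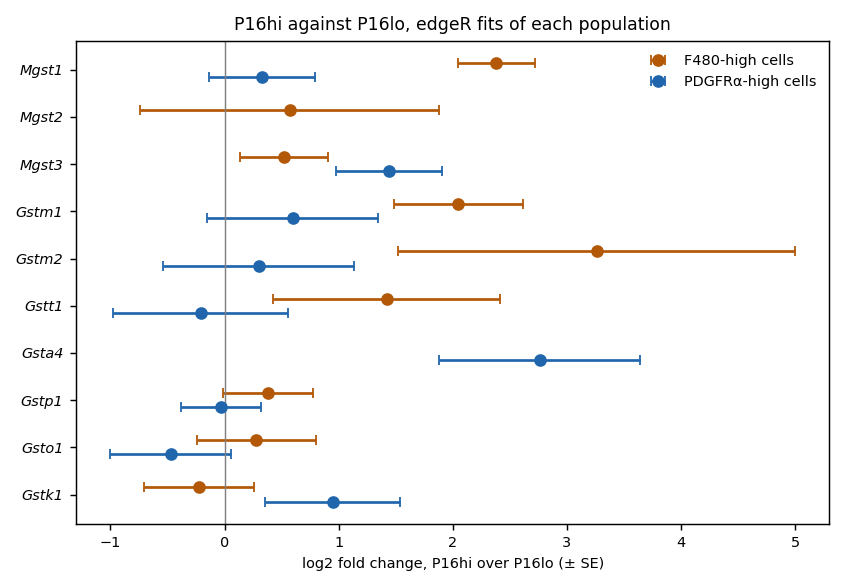
Difference between P16hi and P16lo for each member, as edgeR's log2 fold change ± SE on 1 axis, in F480-high and in PDGFRα-high cells. Values above 0 are higher in P16hi. Mgst1 lies at 2.38 in F480-high and at 0.33 in PDGFRα-high cells, Gsta4 was tested in PDGFRα-high cells alone at 2.76, and Gstm2, at 3.26 in F480-high cells, has the widest error of the F480-high values.

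Whether the P16hi difference itself differed between the populations was fitted over all 12 libraries. For the 8 members not picked on the F480-high values, the F480-high effect minus the PDGFRα-high effect on the log2 scale was -0.97 (SE 0.605) for Mgst3, -1.21 (SE 0.760) for Gstk1, 0.37 (SE 0.524) for Gstp1 and 0.70 (SE 0.790) for Gsto1. It was 2.85 (SE 1.95) for Gstm2 and 1.53 (SE 1.31) for Gstt1. All of these had an adjusted p of 1 by edgeR, and of 14073 genes tested none was called (0%). For Mgst2 it was 2.48 (SE 2.41) and for Gsta4 0.39 (SE 1.52), both given as a description. These genes passed the count filter over all 12 libraries, but Mgst2 not within PDGFRα-high and Gsta4 not within F480-high cells. Their values rest on few counts on that side. Without adjustment, p was under 0.05 for 186 genes (1.32%) above 0 and 113 (0.803%) below. DESeq2 called 6 genes (0.0426%) above 0 and 1 (0.00711%) below. The Mgst1 and Gstm1 values of 2.02 and 1.39 carry the choice of these genes and were given no test.

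Levels between genes were compared in TPM, which are per length and sum to 1000000 in each library. The deposited TPM of P16hi F480-high library 3 do not follow its own deposited FPKM and counts. The ratio of TPM to FPKM, which is nearly 1 factor within each of the other 11 libraries, ran from 0.274 at the 1st percentile to 5.10 at the 99th in that library. There Mgst1 was deposited at 80.9 TPM where its FPKM give 176, and Gstm1 at 131 where they give 344. TPM were therefore recomputed from FPKM for all libraries, and the levels below are on that scale.

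Gstp1 was the most abundant of the 10 in 11 of the 12 libraries, at 36.2% to 75.2% of the summed TPM of the 10 in those libraries. In P16hi F480-high library 1 alone Mgst1 was ahead, at 28.5% of the sum, with Gstp1 at 28.3% and Gstm1 at 27.9%. In P16hi F480-high libraries 2 and 3 Mgst1 made up 24.0% and 13.8%, and in the P16lo F480-high libraries 8.1%, 8.4% and 8.0%. In the PDGFRα-high libraries it made up 5.4% to 13.7% in P16hi and 8.5% to 10.8% in P16lo. The 10 genes together summed to 966.5, 1287.5 and 1275.0 TPM in P16hi and to 559.8, 560.6 and 593.7 TPM in P16lo F480-high libraries. In PDGFRα-high cells they summed to 1496.8, 1221.7 and 1454.7 TPM in P16hi and 725.5, 656.8 and 646.0 TPM in P16lo. The sums are higher in P16hi in both populations, and in F480-high cells they contain the pair picked for being higher there. In PDGFRα-high cells the summed level of 6 erythroid markers was 2362, 39730 and 19860 CPM in P16hi and 5769, 199700 and 668200 CPM in P16lo. The median log2 difference over all genes was 0.45 in TPM there, against -0.17 after TMM scaling. The part of the erythroid RNA in this shift and in the sums was not tested.

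**Figure D5:**
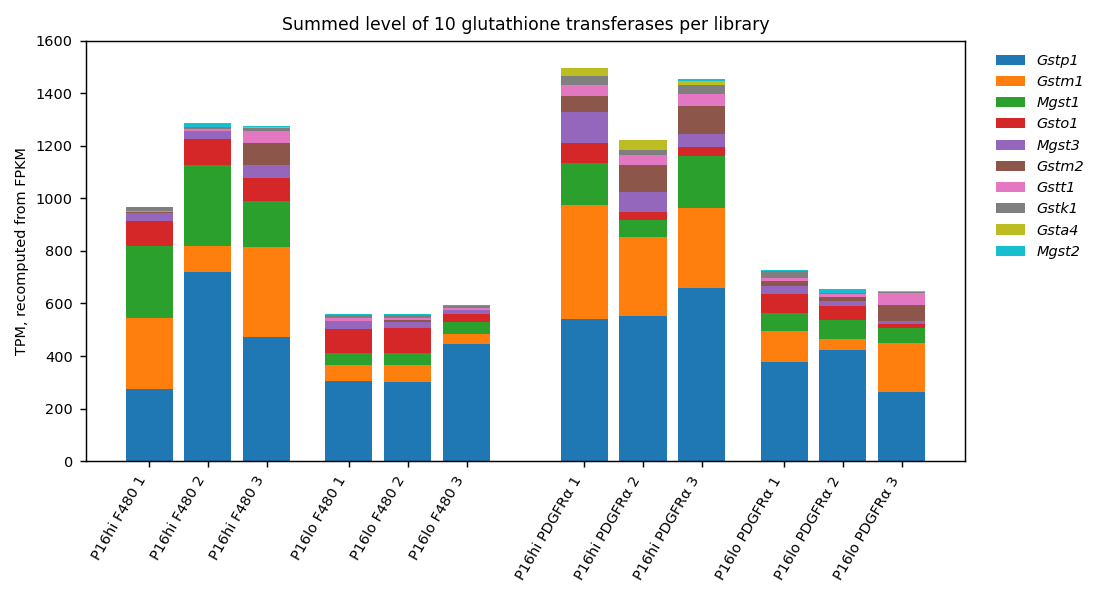
Summed level of the 10 genes in each of the 12 libraries, as stacked bars in TPM recomputed from FPKM, with P16hi libraries to the left of P16lo in each population. The segments are the genes. P16hi F480-high libraries reach 966.5 to 1287.5 TPM and P16lo ones 559.8 to 593.7, with Gstp1 the largest segment in all but P16hi F480-high library 1.

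Each gene had its own order over the 4 groups. Mgst1 averaged 254 ± 69.0 TPM in P16hi F480-high, 141 ± 68.3 in P16hi PDGFRα-high, 64.6 ± 8.48 in P16lo PDGFRα-high and 46.6 ± 1.22 in P16lo F480-high cells (SD, n = 3 each). Only the last step of that order, between the P16lo groups, had no overlap between neighbouring groups. Gstm1 averaged 347 ± 76.4 TPM in P16hi PDGFRα-high and 237 ± 126 in P16hi F480-high cells, then 116 ± 72.1 in P16lo PDGFRα-high and 54.4 ± 14.4 in P16lo F480-high cells, with overlap at each step. Mgst3 was highest in P16hi PDGFRα-high cells, at 81.0 ± 35.0 TPM, and averaged 35.1 ± 11.9 TPM in P16hi F480-high and 22.7 ± 4.97 TPM in P16lo F480-high cells. The lowest P16hi PDGFRα-high library, at 49.2 TPM, was barely above the highest P16hi F480-high one, at 48.8. The lowest P16hi F480-high library, at 28.1 TPM, was barely above the highest P16lo one, at 27.7, and in CPM these groups overlapped. Gsta4 was at 28.7 ± 9.98 TPM in P16hi PDGFRα-high cells, 2.17 ± 1.23 in P16lo PDGFRα-high cells, 1.59 ± 2.37 in P16hi F480-high and 0.139 ± 0.122 in P16lo F480-high cells, with no overlap at the first step. The tables of the 2 populations were deposited separately, so levels set across them carry any difference between the tables.

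Of the remaining members, Gstm2 and Gstt1 were highest in P16hi PDGFRα-high cells, at 90.4 ± 25 and 42.6 ± 3.05 TPM, and lowest in P16lo F480-high cells, at 2.83 ± 2.31 and 6.80 ± 2.35 TPM. Gsto1 was highest in F480-high cells, at 93.7 ± 7.07 TPM in P16hi and 72.2 ± 38.7 in P16lo, where PDGFRα-high cells had 45.3 ± 25.3 in P16hi and 45.9 ± 27.8 in P16lo. All of its neighbouring groups overlapped. Gstk1 had 28.3 ± 9.22 TPM in P16hi PDGFRα-high cells and 11.1 to 12.4 on average in the other 3 groups, and Mgst2 averaged 2.61 to 5.77 TPM in the 4 groups. The level of Gstp1 may share reads with its close copy, since 62.3% of the 50-base windows of its longest protein-coding transcript also occur in Gstp2. For Gstm1 the share was 19.5%, mostly with the pseudogene Gstm2-ps1, for Gstm2 1.1%, and for the other 7 members 0%. Only transcripts of genes named Gst or Mgst were compared.

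The members that varied together were not the same in each population. Over the 6 F480-high libraries Gsta4 had a Pearson correlation of log2(CPM + 1) of 0.95 with Gstt1 and 0.93 with Gstm2, a description that rests on their shared high value in P16hi library 3. Over the 6 PDGFRα-high libraries Gstm2 and Gstt1 had a correlation of 0.93 and Gstm1 and Gstm2 one of 0.88. That of Mgst1 with Gstm1 was 0.48 there.

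The genes most like Mgst1 over the F480-high libraries, of 8891 compared by the same correlation, were Ipmk (0.985), an inositol phosphate kinase, Mettl7a1 (0.981), Ccpg1 (0.971), a receptor for degradation of endoplasmic reticulum by autophagy, Tnks (0.970), a tankyrase, and Gyg (0.962), which primes glycogen. Gyg averaged 170 CPM in P16hi and 68.5 in P16lo, and Mettl7a1 20.7 CPM in P16hi and 10.2 in P16lo. The genes most like Gstm1 were Ada (0.988), the adenosine deaminase, Tbc1d23 (0.986), Pttg1ip (0.981), Wdsub1 (0.981) and Nufip2 (0.978), with Ada at 19.3 CPM in P16hi and 9.16 in P16lo. With 6 libraries and so many genes, correlations this high are picked from the top of a long list. Genes that follow a pair picked for being higher in P16hi are higher there by that choice. Over the PDGFRα-high libraries the correlation with Mgst1 was 0.745 for Mettl7a1, 0.553 for Ccpg1 and 0.462 for Gyg, but -0.521 for Ipmk and -0.489 for Tnks. That with Gstm1 was 0.754 for Wdsub1 and 0.534 for Pttg1ip, but -0.019 for Tbc1d23, -0.229 for Ada and -0.438 for Nufip2.

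The rest of the glutathione pathway was looked at through 75 further genes in 5 lists. In F480-high cells 63 of them were tested and none was called by edgeR. There, unadjusted p was under 0.05 for 1 higher and 0 lower, beside 1.94% and 0.304% of all genes. In PDGFRα-high cells 67 were tested and none was called. Unadjusted p was under 0.05 for 3 of them above 0 and 3 below, beside 4.80% and 1.67% of all genes. P16hi and P16lo libraries did not overlap for 3 higher and 1 lower of the 63 (3.37% and 3.48% of all genes) in F480-high cells. In PDGFRα-high cells this held for 5 higher and 4 lower of the 67 (7.92% and 6.92% of all genes).

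Among 20 other glutathione transferases and MAPEG relatives the median log2 difference was 0.26 over the 11 tested in F480-high cells and 0.19 over the 15 tested in PDGFRα-high cells. Gstt2, a theta-class relative of Gstt1, had 56.9, 26.8 and 18.1 CPM in P16hi and 11.9, 9.60 and 17.0 CPM in P16lo PDGFRα-high libraries, a log2 difference of 1.40 (SE 0.520, adjusted p = 0.685 by edgeR). All P16hi values were above all P16lo values, though P16hi library 3 was barely so. Gstp2, the copy of Gstp1, stayed between 0.382 and 4.31 CPM in F480-high cells. Alox5ap, which hands arachidonic acid to the first enzyme of leukotriene synthesis, had 793, 1180 and 612 CPM in P16hi and 872, 772 and 289 CPM in P16lo F480-high libraries, which overlapped. Gstm5, a further mu-class gene, had a log2 difference of 1.41 (SE 1.43) there. In PDGFRα-high cells Gstp3 (-3.31, SE 1.40) and Gsta3 (-2.78, SE 1.31) were lower without passing the adjusted threshold. Gsta3 reached 58.4 CPM in P16lo library 3 alone, the library rich in fibroblast and erythroid markers.

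Of the 13 genes of glutathione synthesis and breakdown tested in each population the median was 0.22 in F480-high and -0.30 in PDGFRα-high cells. Slc7a11, the cystine importer that feeds glutathione synthesis, had 1.22, 2.03 and 2.47 CPM in P16hi and 3.67, 31.5 and 6.91 CPM in P16lo PDGFRα-high libraries. Every P16hi library was below every P16lo library, and P16lo library 2, rich in monocyte and neutrophil markers, was far above the rest, with a log2 difference of -2.85 (SE 0.982, adjusted p = 0.628 by edgeR). Ggt5, a relative of the enzyme that starts glutathione breakdown outside the cell, had a log2 difference of -1.56 (SE 0.601), and Lap3, a leucine aminopeptidase, one of 0.97 (SE 0.351). In F480-high cells Anpep, an aminopeptidase of the cell surface, had 534, 40.3 and 23.8 CPM in P16hi and 76.9, 83.5 and 2.71 CPM in P16lo, with 1 high library in P16hi. Oplah and Ggct, enzymes of the cycle that recovers glutamate from glutathione, had log2 differences of 1.35 (SE 1.07) and -0.95 (SE 0.741).

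The 15 glutathione peroxidases and redox enzymes had medians of 0.29 in F480-high and -0.17 in PDGFRα-high cells. Gpx1, the main cytosolic glutathione peroxidase, had 2220, 1520 and 950.0 CPM in P16hi and 2590, 2290 and 3290 CPM in P16lo PDGFRα-high libraries. The groups did not overlap, and the log2 difference was -0.80 (SE 0.413, adjusted p = 0.823 by edgeR). Gsr, which regenerates reduced glutathione, had 49.9, 277 and 47.4 CPM in P16hi and 38.2, 46.8 and 60.9 CPM in P16lo F480-high libraries, so that 1 P16hi library held its difference. Gpx3, the secreted peroxidase, was likewise high in 1 library, with 492, 27.2 and 98.8 CPM in P16hi and 70.5, 57.9 and 6.52 CPM in P16lo. Glo1, the glyoxalase, had a log2 difference of 0.55 (SE 0.321) in F480-high cells. In PDGFRα-high cells Gsr was at -0.99 (SE 0.645), with its highest level, 159 CPM, also in P16lo library 2, and Adh5, which breaks down glutathione adducts of formaldehyde, at 0.53 (SE 0.362).

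For the 18 genes of NRF2 and its targets the medians were 0.13 in F480-high and 0.07 in PDGFRα-high cells. Nqo1, a quinone reductase used as a readout of NRF2, had 0.896, 0.507 and 3.79 CPM in P16hi and 0.806, 1.18 and 0 CPM in P16lo F480-high libraries, which overlapped. In PDGFRα-high cells it had 6.43, 8.78 and 11.0 CPM in P16hi and 2.12, 1.29 and 4.71 CPM in P16lo, without overlap, for a log2 difference of 1.70 (SE 0.813, adjusted p = 0.802 by edgeR). None of the 18 had an unadjusted p under 0.05 in either population. The others of smallest p were Me1 (log2 difference 2.32, SE 1.32) and Blvrb (0.56, SE 0.565) in F480-high cells, and Pgd (-0.72, SE 0.410) and Srxn1 (0.91, SE 0.548) in PDGFRα-high cells.

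The pumps that carry glutathione conjugates out of the cell had a median of 0.62 over the 6 tested in F480-high cells, all 6 of them above 0, and of -0.15 in PDGFRα-high cells. Abcc5 had 34.3, 21.2 and 48.9 CPM in P16hi and 20.5, 19.1 and 10.5 CPM in P16lo F480-high libraries, a log2 difference of 1.06 (SE 0.441, adjusted p = 0.999 by edgeR). The groups did not overlap, and P16hi library 3 was highest. Abcg2, a drug efflux pump, was higher in all P16hi PDGFRα-high libraries, at 23.3, 43.7 and 40.7 CPM against 17.7, 3.99 and 17.9 CPM in P16lo, and Abcc1 was lower, at 1.53, 14.9 and 14.3 CPM in P16hi and 30.3, 21.4 and 30.3 CPM in P16lo. Neither passed the threshold, with adjusted p = 0.765 and 0.828 by edgeR. Abcg2 in F480-high cells had 10.2, 2.81 and 65.8 CPM in P16hi and 5.26, 8.18 and 1.11 CPM in P16lo, again highest in P16hi library 3, and Abcc3 in PDGFRα-high cells had a log2 difference of -1.44 (SE 1.30).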

How the data were processed

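RNA of sorted heart cells was sequenced from 12 libraries as DNA nanoballs after transposase tagging of cDNA, per the labels' protocols. The submitters' processing notes name HISAT and the builds mm10 and GRCm38. Its version, the counting tool and any use of strand are not stated in the labels or headers, so overlapping and antisense genes carry uncertain counts. Per the file headers, the authors deposited 4 values per gene and library, an estimated count, TPM, FPKM and a normalised read count. The deposited normalised read counts, a signal equal to the count times 1 factor per library, were not used.

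Genes were joined by identifier, and a gene listed in 1 of the column blocks of a table was set at 0 in the other. Expected counts were rounded to whole numbers before edgeR 4.0.16 was run in R 4.3.3 (filterByExpr with a minimum count of 10, TMM, robust quasi-likelihood test), with p-values adjusted by Benjamini-Hochberg over all genes tested and a threshold of 0.05. All 6 libraries of a population entered its fit. Members, lists and tests were chosen with earlier results of these data known. All 10 members are named, with the 3 genes of smallest p per pathway list and population, the 5 genes with the highest correlation with Mgst1 and with Gstm1 among genes of mean log2 CPM of at least 3, and the sort and reporter genes. A gene that this rule names is not reported here. The fits were tested on simulated data, but no outcome of that is given here and no result rests on it. Alternatives were other scalings and count filters, DESeq2 1.42.0, limma 3.58.1 on log2(TPM + 1) with a pseudocount of 1, a replicate block, the column block, each library left out and, added after the data were seen, TPM recomputed from FPKM.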

Additional observations from a re-analysis of the deposited data

How the results depend on the processing

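Across the alternatives, 101 of 104 counts of called members kept their value. The exceptions were 1 member called higher in PDGFRα-high cells by limma on deposited and on recomputed TPM (Gsta4), and 1 called higher in F480-high cells by DESeq2 (Mgst1, picked on that contrast). Of 487 single-gene values, 437 were the same, 39 changed sign, all of them not called, 9 moved and 2 newly passed the threshold. For most genes, the same meant an unchanged direction and side of the threshold. For Mgst1 and Gstm1 in F480-high cells and in the difference between populations, side of the threshold was not used. There the same meant a shift under the within-group SD in F480-high cells, and moved a larger one. In PDGFRα-high cells, scaling by library totals alone moved the log2 differences of Gstt1 and Gstp1 to 0.41 each, and limma, on either TPM, moved them to 1.07 and 0.74 and Gsto1 to 0.09. These scalings put the median of all genes at 0.24 and 0.45, where TMM put it at -0.17. In F480-high cells limma on deposited TPM gave Gstt1 -0.19, and the column block gave Mgst2 -1.13. The column block was not fitted in PDGFRα-high cells or for the difference between populations. In PDGFRα-high cells P16hi library 1 is alone in its block, so block and library cannot be told apart there. For that difference limma gave, on deposited and then recomputed TPM, -0.82 and -0.01 for Gstm2, -1.26 and -0.39 for Gstt1, -2.46 and -2.42 for Gsta4, and -0.42 and -0.34 for Gstp1. The causes of these changes were not tested.

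Leaving out 1 library at a time gave PDGFRα-high ranges of -0.26 to 0.14 for Gstp1, -0.15 to 2.10 for Gstm2 and -0.64 to 1.32 for Gstt1. In F480-high cells the ranges were -1.48 to 1.12 for Mgst2, -0.38 to 1.88 for Gstt1 and -0.13 to 0.59 for Gsto1. For the difference between populations they were -2.21 to 1.03 for Gsta4, -0.91 to 4.51 for Mgst2 and -0.22 to 2.00 for Gstt1.

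Libraries share replicate numbers, but deviations of same-numbered libraries had correlations of 0.10, -0.01 and 0.31 in PDGFRα-high and 0.47, -0.30 and 0.14 in F480-high cells, so the numbers were not taken as pairs. With the replicate block no member was called in any comparison (0 higher and 0 lower). The block gave Gstt1 0.46 and Gstp1 0.02 in PDGFRα-high cells, Mgst2 -0.71 in F480-high cells, and Mgst2 -0.15 and Gsta4 -1.28 for the difference between populations. Mgst2 in PDGFRα-high cells and Gsta4 in F480-high cells did not pass the count filter, so they have no fold change there. Their differences between populations, in every setting, rest on few counts on that side.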
